A study of Mus musculus with 3 samples.

Results

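Endothelial cells line blood and lymphatic vessels, and 672 of them were found among 49393 cells that had been sorted from the mouse larynx for the red reporter tdTomato. Endothelial cells were chosen by measured values, and a cell was counted if at least 4 of 7 genes each had a unique molecular identifier (UMI, one counted RNA molecule). The 7 genes were *Pecam1*, *Cdh5*, *Kdr*, *Flt1*, *Egfl7*, *Cldn5* and *Emcn*. They made up 1.36% of all cells (95% Wilson interval 1.26 to 1.47). Since these genes chose the cells, every comparison of endothelial cells with other cells is a description and carries no test.

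The study used single-cell RNA sequencing to profile cells that express *Lrig1*, a transmembrane regulator of growth factor receptors that marks stem cells in several epithelia. The mice were *Lrig1*CreERT2/+; ROSA26 CAG-LSL-tdTomato/+, and 2 tamoxifen injections on consecutive days switched on the reporter in cells with an active *Lrig1* locus. Tissue was taken 1 day after recombination, and each of the 3 libraries pooled 10 larynges from 5 male and 5 female mice. Wild-type and ROSA26 CAG-LSL-tdTomato/+ mice served to set the sorting gates and have no library here, so all 3 libraries are of a single condition with n = 3. The Cre recombinase was driven by *Lrig1* in every cell type, so no vascular driver selected these cells, and one *Lrig1* allele carried the Cre in every animal. The counted features did not include tdTomato or Cre, and the age of the mice is not given in the sources used here.

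Vessel endothelium is held together by cadherin and claudin junctions and grows in response to VEGF, angiopoietin, Notch and BMP signals. Its cells differ along the vascular tree. Arteries carry gap junction and Notch genes, capillaries carry lipid and gas exchange genes, and veins carry the receptors that capture leukocytes. Lymphatic endothelium depends on the transcription factor *Prox1* and on the VEGF-C receptor *Flt4*, and in mucosa it drains fluid and guides immune cells.

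Library 1 held 584 endothelial cells of 14252, which was 4.10% (3.78 to 4.44). Library 2 held 32 of 7527, or 0.425% (0.301 to 0.60), and library 3 held 56 of 27614, or 0.203% (0.156 to 0.263). Library 1 therefore stood apart and supplied 86.9% of the endothelial cells. It was also the highest of the 3 in mural-marked cells (0.674, 0.319 and 0.206%), in macrophage-marked cells (0.842, 0.518 and 0.138%) and in fibroblast-marked cells (14.4, 5.08 and 6.71%). The lowest share of epithelial-marked cells was there too (52.7, 69.3 and 72.2%). Intervals cover counting error only, and whether the pools differed in dissociation or gating was not tested.

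The median endothelial cell held 8007, 6611 and 5526.5 UMIs in libraries 1, 2 and 3, against 10761, 14331 and 11199 for all cells. Summed over endothelial cells the libraries held 5713556, 351897 and 499619 UMIs, so that 1 UMI equalled 0.175, 2.84 and 2.00 CPM. CPM is a gene's share of all UMIs of a sum, on the same scale in every library. Levels below are such summed CPM, and they are compared between cells for a gene and not between genes. Libraries 1 and 3 shared 119 cell barcodes, libraries 2 and 3 shared 67 and libraries 1 and 2 shared 24, of which 1 was an endothelial barcode, in libraries 1 and 3.

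Of the 672 cells, 121 had all 7 genes, 374 had 6, 131 had 5 and 46 had 4. Just outside stood 38 barcodes with 3 of the genes, and a further 122 had 2, 2565 had 1 and 45996 had none. The 46 cells just inside the threshold held a median of 4121.5 UMIs, and the 38 just outside held 3189.

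Each chosen gene was much lower in the other sorted cells. *Flt1*, a VEGF receptor on chromosome 5 (chr5:147498414-147662826, minus strand, GRCm39), stood at 2317, 1302 and 1393 CPM in endothelial cells of libraries 1, 2 and 3 and at 1.70, 0.741 and 0.478 CPM in the rest. *Pecam1*, a junctional adhesion molecule (chr11:106543689-106641454, minus strand), stood at 1472, 2040 and 1307 CPM against 4.09, 2.23 and 2.51. The groups did not overlap for either gene, which the choice of cells imposed.

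*Cdh5*, which encodes VE-cadherin (chr8:104828231-104871143, plus strand), had 541, 605 and 546 CPM. *Kdr*, the main VEGF receptor (chr5:76093487-76139884, minus strand), varied more, with 892, 352 and 472 CPM. *Egfl7*, a secreted vessel protein (chr2:26468286-26486789, plus strand), had 919, 870 and 875 CPM, and *Emcn*, a sialomucin of capillaries and veins (chr3:137046794-137138999, plus strand), had 1098, 986 and 1109. *Cldn5*, a tight junction claudin (chr16:18595597-18597012, plus strand), was found in the fewest cells, 45.7% of those in library 1, where *Pecam1* was found in 98.5%.

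The 250 bases before the start of *Flt1*, *Kdr* and *Emcn* are shown for the word AGGAAG. This word holds GGAA, the core bound by ETS factors such as *Erg*, whose transcript is described below. Sequences are RefSeq reference sequence of GRCm38.p6, 5′ to 3′ on the strand of the gene, with the word, or its reverse complement CTTCCT, in capitals. *Flt1* (chr5:147726012-147726261, minus strand) held the word at 2 places and *Emcn* (chr3:137340828-137341077, plus strand) also at 2. The *Kdr* window (chr5:75978456-75978705, minus strand) did not hold the word, although the shorter core GGAA and its reverse complement TTCC stand in it.

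Flt1: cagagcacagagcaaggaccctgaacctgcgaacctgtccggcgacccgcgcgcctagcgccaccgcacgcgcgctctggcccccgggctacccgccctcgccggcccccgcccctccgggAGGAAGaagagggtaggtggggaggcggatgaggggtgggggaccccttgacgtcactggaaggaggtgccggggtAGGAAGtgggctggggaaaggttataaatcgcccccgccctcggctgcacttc

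Kdr: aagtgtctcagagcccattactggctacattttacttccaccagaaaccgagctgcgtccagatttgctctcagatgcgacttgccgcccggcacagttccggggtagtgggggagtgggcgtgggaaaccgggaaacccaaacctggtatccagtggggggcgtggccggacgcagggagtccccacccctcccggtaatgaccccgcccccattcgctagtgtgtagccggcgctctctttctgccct

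Emcn: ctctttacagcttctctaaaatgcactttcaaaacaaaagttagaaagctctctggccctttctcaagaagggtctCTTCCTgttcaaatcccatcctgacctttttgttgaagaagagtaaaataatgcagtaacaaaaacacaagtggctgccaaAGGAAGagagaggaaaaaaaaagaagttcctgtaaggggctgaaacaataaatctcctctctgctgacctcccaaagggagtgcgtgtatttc

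Of the 7 genes, 5 had a promoter in the table, with 7 windows of these 250 bases, of which 4 held the ETS word on either strand. The word stood in 33.5% of 546 windows of the genes higher in endothelial cells and in 27.2% of 585 windows of the genes lower there. In all genes measured it stood in 27.8% of 10545 windows, and in 29.5% of all 32851 promoter windows. The SOX word AACAAT stood in 6.59% of the windows of the higher genes and in 5.47% of those of all genes measured, beside 7.86% of those of the lower genes. A match is a run of letters and not a measured binding site.

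Across the transcriptome, 10323 genes with a mean of at least 10 CPM were compared within library 1 and within library 2. A gene was counted as higher or lower where the log2 ratio of endothelial to other cells, with 1 CPM added to each, was at least 2 in size in both libraries. Counts for a list are out of all its genes, also those too low to be compared. By this measure 544 genes were higher (5.27%) and 656 lower (6.35%), and the median over all genes was -0.10. Of the 544 higher genes, 506 passed the same threshold in library 3, which had not been used, and 542 were above 0 there. In library 2 alone, without library 1, 987 genes were lower. Among the 656 lower genes, 273 had no UMI at all in the endothelial cells of library 2, and 470 passed in library 3.

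Genes outside the 7 that chose the cells and outside the gene lists were ranked too. The 10 with the largest ratio in both libraries that were in none of the gene lists were *Cyyr1*, *Ctla2a*, *Gimap6*, *Cd93*, *Ecscr*, *Fam110d*, *Klhl4*, *Myct1*, *Ushbp1* and *Rasip1*. *Cyyr1* had 1157, 961 and 749 CPM in endothelial cells against 1.08, 0.284 and 0.391 in the others. *Cd93*, a receptor involved in endothelial adhesion, had 320, 310 and 318 CPM against 0.935, 0.181 and 0.159. *Rasip1*, which is needed for vessel lumen formation, had 176, 244 and 194 CPM against 0.503, 0.276 and 0.374. *Ctla2a* has close sequence relatives, so its count is uncertain.

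**Figure D1:**
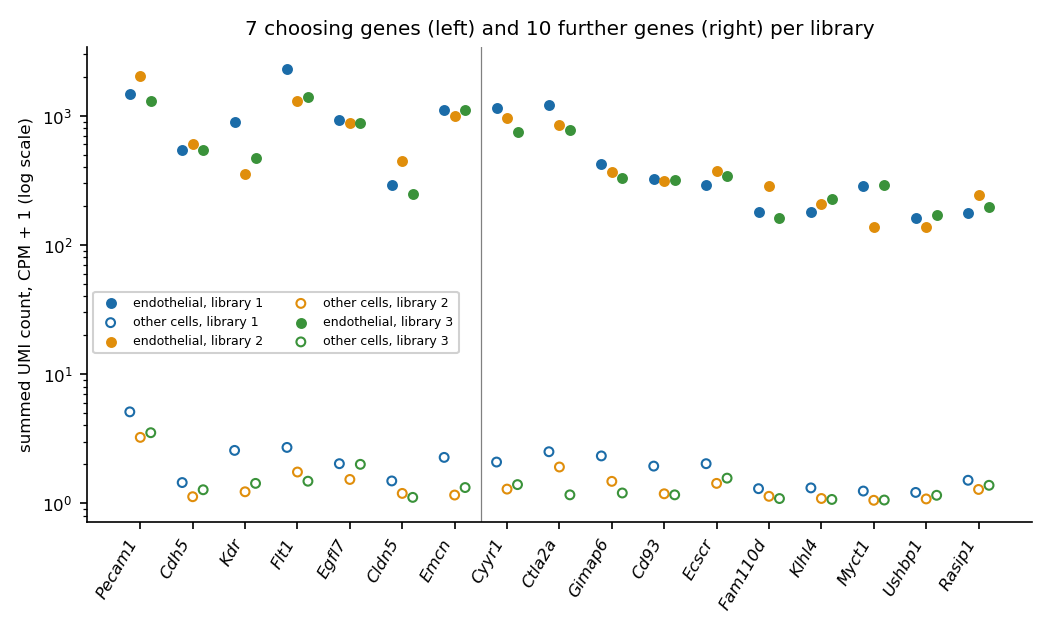
Summed CPM plus 1 (log axis) of the 7 choosing genes and 10 further genes in endothelial cells (filled points) and all other sorted cells (open points), 1 point per library. *Flt1* lies between 1302 and 2317 CPM in endothelial cells and at or below 1.70 CPM in the others, and the 2 sets of points do not overlap for the chosen genes.

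Receptors of the VEGF family were higher in endothelial cells, and the ligands were divided. Of 10 genes in that list 6 were higher and 1 lower, with a median log2 ratio of 3.58. Without *Flt1* and *Kdr*, which chose the cells, 4 of 8 were higher, with a median of 2.10. *Flt4*, the VEGF-C receptor, had 133, 117 and 130 CPM in endothelial cells against 0.270, 0.0775 and 0.181, a log2 ratio of 6.76 ± 0.03 (SD, n = 3). The co-receptors *Nrp1* and *Nrp2* reached 4.22 ± 0.38 and 5.42 ± 0.84. *Vegfa*, the ligand of *Flt1* and *Kdr*, was lower, with 19.3, 14.2 and 24.0 CPM against 96.9, 77.1 and 102 in the other cells. *Vegfc*, the ligand of *Flt4*, was higher, with 85.8, 151 and 98.1 CPM against 16.3, 8.91 and 7.63.

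In the angiopoietin list 4 of 7 genes were higher, with a median of 4.13. The receptors *Tie1* and *Tek* had log2 ratios of 7.40 ± 0.24 and 5.06 ± 0.78 (SD, n = 3), and *Ptprb*, a phosphatase that restrains them, had 9.98 ± 0.51. *Angpt2*, the ligand stored in endothelium, had 46.9, 42.6 and 108 CPM against 2.07, 1.22 and 1.42. *Angpt1*, a ligand usually made by perivascular cells, had 16.1, 0 and 4.0 CPM in endothelial cells against 50.6, 17.5 and 26.8 and did not pass the threshold.

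In the Notch and BMP lists 3 of 14 genes each were higher, or 21.4%, beside 5.27% of all genes compared. Of the Notch genes, *Dll4*, *Notch4* and *Nrarp* were higher and the median was 0.06. *Dll4*, an arterial ligand, had 97.1, 56.8 and 40.0 CPM against 0.198, 0.224 and 0.0679, and *Notch4* had 45.2, 45.5 and 14 against 0.935, 0.637 and 0.790. *Notch1* had 171, 202 and 156 CPM against 70.4, 71.5 and 85.1, below the threshold. Of the BMP genes the type I receptor *Acvrl1*, its co-receptor *Eng* and the ligand *Bmp6* were higher, with log2 ratios of 3.21 ± 0.30, 6.13 ± 0.77 and 2.20 ± 0.05 (SD, n = 3).

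Transcription factors known from vessel development were among the clearest. Of 22 such genes 13 were higher, with a median of 4.36. *Sox18* had 307, 236 and 256 CPM against 0.347, 0.0603 and 0.0849, and *Erg* had 239, 276 and 288 against 2.02, 0.689 and 1.17. *Sox17*, an arterial factor, had 158, 90.9 and 78.1 CPM against 0.174, 0.0258 and 0.0226. *Klf2*, a factor induced by blood flow, had 932, 1242 and 803 CPM against 40.0, 21.7 and 16.3. *Epas1*, a hypoxia factor known from endothelium, had 662, 597 and 576 CPM and was below the 1023, 1390 and 1243 CPM of the other cells, short of the threshold.

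In a list of G protein-coupled receptors and the accessory proteins *Ramp2* and *Ramp3*, 7 of 14 genes were higher, with a median of 3.64. *Adgrl4*, an adhesion receptor, had 929, 583 and 534 CPM against 0.497, 0.0172 and 0.105. *S1pr1*, the receptor for the vessel-stabilising lipid S1P, had 406, 526 and 248 CPM against 2.91, 0.810 and 1.12. The calcitonin receptor-like receptor *Calcrl* and its partner *Ramp2* were higher by 3.59 ± 0.33 and 4.84 ± 0.79 on the log2 scale (SD, n = 3).

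Of 16 junction genes 6 were higher, with a median of 1.99. Without the 3 that chose the cells, 3 of 13 were higher, with a median of 0.81, and these were *Esam*, *Jam2* and *Plvap*, of which *Esam* had 553, 469 and 362 CPM against 2.10, 0.482 and 0.634. Others stayed short of the threshold. *Tjp1*, a scaffold of tight junctions, was above the other cells in each library with 354, 384 and 368 CPM against 116, 110 and 108, while *Ocln* had 6.48, 19.9 and 6.0 against 22.4, 23.8 and 27.3.

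Genes for clotting and vessel tone were higher for 9 of 19, with a median of 1.92. *Nos3*, which makes nitric oxide, had 91.0, 210 and 98.1 CPM against 0.407, 0.233 and 0.187, and *Thbd*, the anticoagulant thrombomodulin, had 199, 176 and 222 against 10.2, 3.37 and 6.33. *Vwf*, the clotting factor of veins, had 202, 682 and 458 CPM.

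Of 16 leukocyte adhesion genes 5 were higher, with a median of 0.96. The selectins *Selp* and *Sele* had 108, 551 and 232 CPM and 78.2, 156 and 56.0 CPM. *Icam1* and *Vcam1* did not pass, with log2 ratios of 0.65 ± 0.49 and 1.39 ± 1.5 (SD, n = 3). No UMI of *Madcam1*, *Glycam1* or *Chst4*, genes of the high venules of lymphoid tissue, was found in endothelial cells. With 3 UMIs as the limit that a count of 0 allows, this leaves levels of up to 0.525, 8.53 and 6.0 CPM.

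Basement membrane genes were higher for 7 of 17 and lipid uptake genes for 8 of 12, with medians of 2.03 and 3.69. The collagens *Col4a1* and *Col4a2* had log2 ratios of 3.26 ± 0.21 and 3.86 ± 0.01 (SD, n = 3). *Mmrn2*, an endothelial matrix protein, had 322, 497 and 318 CPM against 0.467, 0.457 and 0.277. *Gpihbp1*, which anchors lipoprotein lipase to capillaries, had 405, 210 and 200 CPM against 0.389, 0.0517 and 0.0368, and the fatty acid carrier *Fabp4* had 2070, 1927 and 3246 against 13.0, 3.31 and 2.16.

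Genes of all vessel types were present. Of 16 capillary genes 14 were higher (median 4.41), of 18 arterial genes 10 (3.05), of 14 venous genes 7 (3.19) and of 14 tip cell and angiogenic genes 5 (1.81). The 4 lymphatic genes used below were all higher, as were 12 of 17 further lymphatic genes, with medians of 6.28 and 4.04. *Esm1*, a tip cell gene, was uneven, with 361, 136 and 48.0 CPM.

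Lists for antigen presentation, the cell cycle and immediate early genes were also counted. Of 10 MHC genes 9 were high enough to compare and none passed, and of 16 cell cycle genes 4 were and none passed, with medians of 0.35 and -0.66 over the whole lists. Class I genes were above the other cells by less than the threshold, such as *B2m* at 1.94 ± 0.12 and *H2-K1* at 1.13 ± 0.11 (log2, SD, n = 3). Of 19 immediate early genes 1 was higher, *Klf2*, which at 5.26% was close to the 5.27% of all genes compared, and the median was -0.64. *Mki67*, a proliferation marker, stood at 1.23, 0 and 4.0 CPM.

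*Lrig1* itself was lower in endothelial cells. It had 14.9, 11.4 and 36.0 CPM there and 71.3, 87.2 and 88.5 CPM in the other sorted cells. Without the 87 endothelial cells of 2 clusters with epithelial markers, described below, it had 6.93, 8.97 and 16 CPM. Of the 14 genes of the *Lrig* and ErbB receptor list none was higher and 5 were lower, which besides *Lrig1* were *Egfr*, *Erbb3*, *Erbb4* and the ligand *Nrg1*. *Egfr* had 63.2, 14.2 and 44.0 CPM against 308, 294 and 309, and without those 87 cells it had 9.44, 2.99 and 2.66. In contrast, *Lrig2* had 37.1, 62.5 and 40.0 against 40.4, 40.5 and 40.8.

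Fibroblast and epithelial genes mostly stood lower, while of the genes in other cell type lists fewer passed. Of 10 fibroblast genes 9 were lower (median -4.40), of 12 epithelial genes 8 (median -3.01) and of 8 muscle satellite cell genes 3 (median -2.92). Of 9 erythroid and platelet genes and 8 Schwann and neural genes 1 each reached the level needed for comparison, and of these *Calca* was lower. Of 12 macrophage genes, 7 of them compared, *Lyz2* was lower and none higher, and the list summed to 488, 73.9 and 64.0 CPM in endothelial cells with 0, 7 and 8 of its genes at 0. Of 12 mural genes, 8 of them compared, none was lower and *Tagln*, an actin-binding gene that also led the venous-like cluster described below, was higher. The epithelial list summed to 1104, 2268 and 2058 CPM in endothelial cells and to 6988, 7128 and 11103 CPM in the others. In library 2 its secretory gene *Scgb1a1* gave 1344 CPM of that sum, against 48.5 and 10.0 CPM in libraries 1 and 3.

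**Figure D2:**
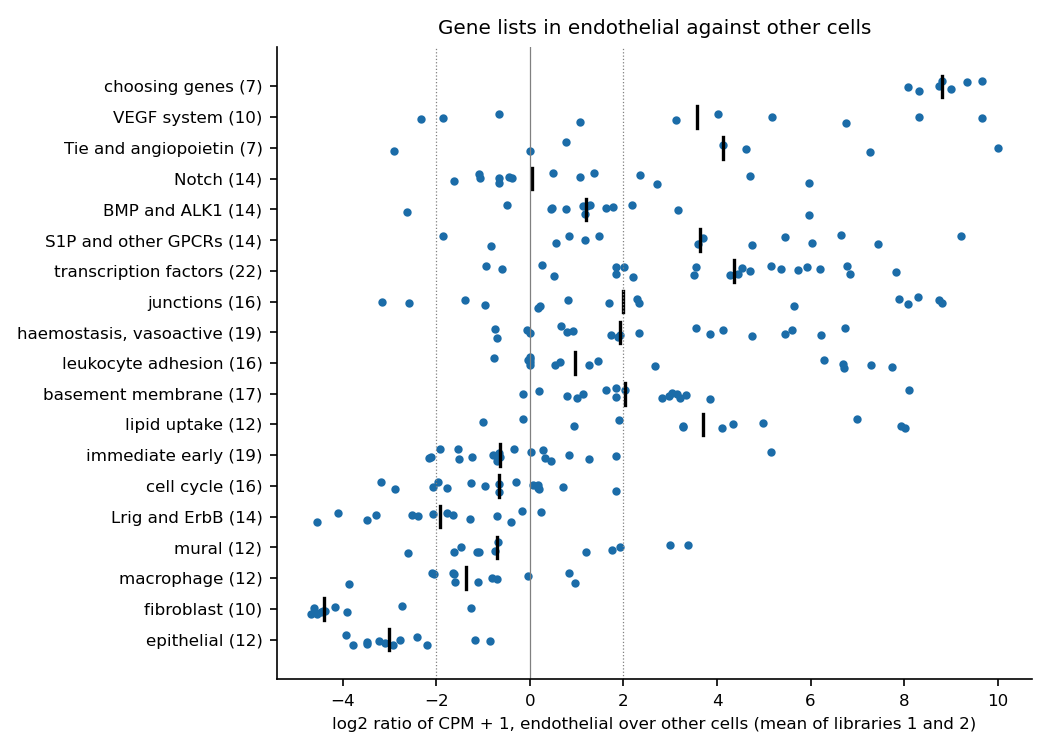
Log2 ratio of endothelial to other sorted cells (summed CPM plus 1, mean of libraries 1 and 2) for the genes of each list, with 1 point per gene, a bar at the median, dotted lines at the threshold of 2 in either direction and the number of genes in brackets. Medians run from 8.82 for the 7 genes that chose the cells to -4.40 for fibroblast genes, beside a median of -0.10 over all genes compared.

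Since 52.7 to 72.2% of all sorted cells were epithelial, the ratios were also taken against fibroblast-, mural- and macrophage-marked cells. Then 505 genes were higher and 693 lower, and 324 of the former and 147 of the latter were the same genes as against all other cells. Of the 146 list genes that were past the threshold against all other cells, 13 turned their direction. They were *Krt5*, *Krt8*, *Krt13*, *Krt15*, *Epcam*, *Cdh1*, *Dsp*, *Trp63*, *Erbb3*, *Calca*, *Lama4*, *Cxcl12* and *Tagln*. The direction of these 13 in endothelial cells thus rested on which cells they were set against. The comparison cells had been chosen to have fewer than 4 epithelial markers, among them *Krt5*, *Krt8*, *Epcam*, *Cdh1* and *Trp63*. Endothelial cells were not limited in this way, and 69 of them had at least 4. For epithelial genes the turn was thus favoured by the choice of cells, and how much of it this made up was not tested.

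To see how the endothelial cells differed among themselves they were clustered, which gave 11 clusters. Cluster genes define the clusters and are given as a description. A cluster of 117 cells, 93, 11 and 13 from libraries 1, 2 and 3, was venous-like, with *Ackr1*, *Selp*, *Sele*, *Vwf* and *Lrg1* raised. In it *Selp* had 497, 1080 and 443 CPM against 33.1 CPM in the remaining endothelial cells. The fibroblast markers *Dcn* and *Col3a1* were raised there too, with 190 and 72.9 CPM against 77.4 and 1.72, in 32.5 and 12.8% of the cells, and the part of fibroblast RNA was not tested. A cluster of 101 cells (84, 8 and 9) was capillary-like, with all 6 capillary markers raised. *Cd36*, a fatty acid receptor, had 6523, 4931 and 4341 CPM there against 356, and *Car4*, a membrane carbonic anhydrase, had 1001, 566 and 868 against 16.8. These cells were shallow, with a median of 4048 UMIs.

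An arterial-like cluster of 39 cells (32, 3 and 4) had all 6 arterial markers raised. The semaphorin *Sema3g* had 505, 265 and 367 CPM in it against 15.7, and the connexin *Gja5* had 76.6, 59.0 and 52.5 against 0.485. The mural markers *Rgs5* and *Acta2* were raised there too, with 481 and 147 CPM against 73.0 and 8.56, in 10.3 and 15.4% of the cells. *Rgs5* was also raised in the capillary-like cluster, with 595 CPM against 59.5, in 39.6% of the cells, and the part of mural RNA in these clusters was not tested. A lymphatic-like cluster of 64 cells (52, 5 and 7) had all 7 lymphatic markers raised. *Mmrn1*, a multimerin, was found in 100% of its cells with 5141, 2901 and 3734 CPM against 187. The mural marker *Kcnj8*, the arterial marker *Bmx* and the venous marker *Nr2f2* were raised in this cluster too. *Bmx* had 132 CPM there against 58.0, in 54.7% of the cells.

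The other 7 clusters were left unnamed. One of 60 cells came from library 1 alone, and every cell had a UMI of *Penk*, which encodes proenkephalin, at 7710 CPM against 405 in the remaining endothelial cells. *Esm1* was found in 90.0% of these cells and *Hpse*, which encodes heparanase, in 70.0%. A further cluster of 67 cells (64, 2 and 1) was led by *Zeb2* and the macrophage gene *Lyz2*, which had 1178 CPM against 138 and was found in 29.9% of its cells. *Cd74*, an antigen presentation gene, had 2064 CPM in 5.97% of the cells, and the macrophage gene *C1qb* had 553 CPM in 4.48%. Another cluster of 21 cells, all from library 1, carried *Depp1* and *Lcn2*. Library 1 thus gave 145 of the 148 cells of these 3 clusters, and library and cell state cannot be told apart there.

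A cluster of 63 cells (56, 1 and 6) carried *Rbp7*, *Btnl9* and *Scarb1*. Another of 53 cells (45, 1 and 7) carried *Prox1* in 83.0% of its cells but *Ccl21a* in 17.0% and *Lyve1* in 15.1%. By the 4 genes used below 48 of its 53 cells were lymphatic, but 3 of 7 lymphatic markers were raised, too few for a name. The leading genes of these 53 cells included *Adm*, a vasodilator peptide that promotes lymphatic growth, with 764, 904 and 249 CPM against 7.14. The claudin *Cldn11* had 217, 1147 and 192 CPM against 5.84, and *Foxc2*, a factor needed for lymphatic valves, had 309, 174 and 153 against 12.3. At a clustering resolution of 0.4 the lymphatic-like cluster held 115 cells, of which 110 were lymphatic by those 4 genes.

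The last 2 clusters, of 50 and 37 cells, had all 7 epithelial markers raised beside the endothelial genes. The basal cell factor *Trp63* had 563, 682 and 681 CPM in the larger against 39.2 CPM. The smaller carried the secretory gene *Bpifa1* in 97.3% of its cells, and 29 of its 37 cells were lymphatic by the 4 genes used below. In a doublet scoring of all cells 42 of 50 and 23 of 37 were marked as doublets. Over all endothelial cells 80 were marked, 12.5, 6.25 and 8.93% of those in libraries 1, 2 and 3, against 7.23, 4.33 and 12.7% of all cells. Without both clusters the epithelial list summed to 297, 1914 and 501 CPM. The lymphatic share, the lymphatic gene counts and the *Lrig1* results below are also given without these 87 cells.

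**Figure D3:**
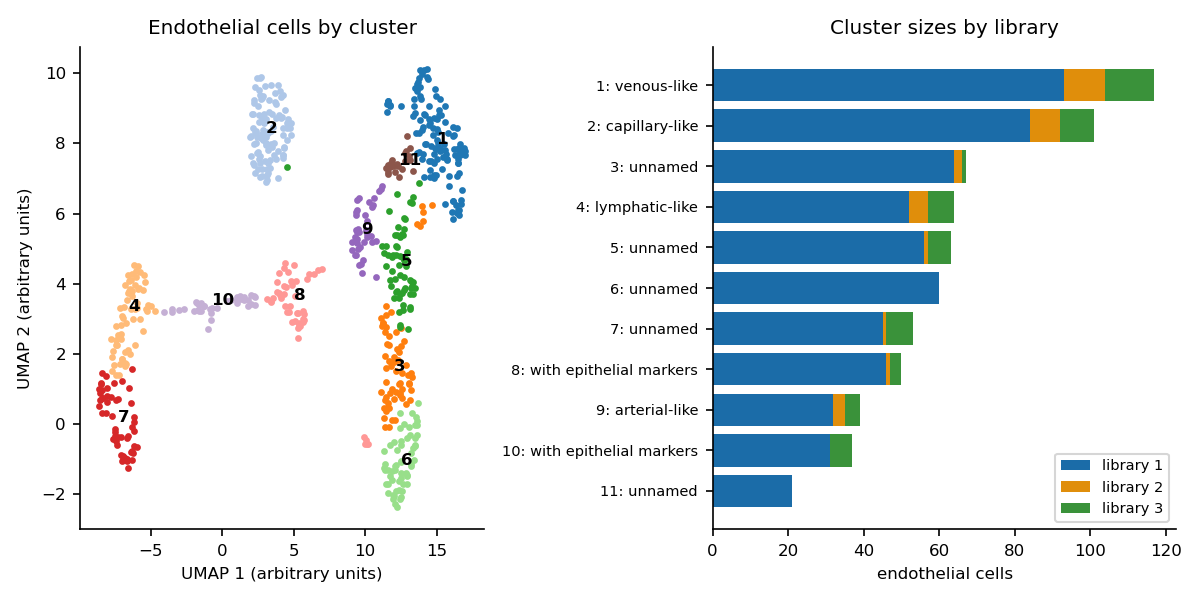
Left, a UMAP map of the 672 endothelial cells by cluster, with axes in arbitrary units; right, the number of cells of each cluster by library. The venous-like, capillary-like, lymphatic-like and arterial-like clusters hold 117, 101, 64 and 39 cells, and the clusters numbered 6 and 11 hold cells of library 1 alone.

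Lymphatic cells were sought with *Prox1* (chr1:189850232-189904637, minus strand), the matrix protein *Mmrn1*, *Flt4* and the hyaluronan receptor *Lyve1*. Cells with at least 2 of these 4 genes numbered 133 of 584, 7 of 32 and 19 of 56. Their shares were 22.8% (19.6 to 26.3), 21.9% (11 to 38.8) and 33.9% (22.9 to 47.0) of the endothelial cells in libraries 1, 2 and 3. The intervals of the 3 libraries overlapped, unlike those of the endothelial share itself. In library 1, 59 cells had all 4 genes, 40 had 3, 34 had 2, 162 had 1 and 289 had none. Outside the endothelial cells 24, 1 and 10 cells also had 2 or more of the genes, none of them macrophage-marked.

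*Flt4* was not specific to these cells. It was found in 32.6% of the other endothelial cells of library 1, while *Prox1* was found in 1.33% and *Mmrn1* in 0.665% of them. In library 3 *Flt4* and *Prox1* were each found in 10.8% of them and *Mmrn1* in 0%. Outside the endothelial cells *Prox1* was found in 5.30, 8.54 and 4.51% of the sorted cells of libraries 1, 2 and 3. The lymphatic and other cells were of like depth in library 1, with medians of 8142 and 7797 UMIs, but not in library 3, with 7844 and 4813.

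Lymphatic cells were set against the other endothelial cells within libraries 1 and 3, those with at least 50 endothelial cells. Of 9757 genes compared, 170 were at least 2 higher on the log2 scale in both libraries (1.74%) and 165 lower (1.69%). The 4 chosen genes are among the former. Without the 2 epithelial-marked clusters 227 genes were higher and 216 lower of 9479, of which 159 and 156 were the same genes. All 10 of the highest and all 10 of the lowest genes named here also passed then, on mostly the same cells and as genes picked for large ratios. The 10 genes with the largest ratios outside the 4 were *Ccl21a*, *Reln*, *Thy1*, *Maf*, *Pard6g*, *Slc45a3*, *Nts*, *Dtx1*, *Nsg1* and *Prkcq*.

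*Ccl21a*, the chemokine that draws dendritic cells into lymphatic vessels (chr4:42772859-42773995, minus strand), had 8240, 18800 and 5959 CPM in lymphatic cells. The other endothelial cells had 1.82, 0 and 0 CPM. The gene has near-identical copies, so its count is uncertain. *Reln*, a secreted glycoprotein, had 1467, 2131 and 922 CPM against 1.37, 0 and 8.96.

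*Maf*, a transcription factor, had 570, 803 and 394 CPM against 7.96, 3.53 and 5.97, and *Nts*, the precursor of neurotensin, had 290, 671 and 158 against 1.14, 0 and 2.99. *Pard6g*, a polarity protein, had 548, 642 and 522 CPM against 9.79, 0 and 5.97. These genes were picked for their large ratios in libraries 1 and 3, so the gap between lymphatic and other cells there follows from the choice.

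Genes lower in lymphatic cells included capillary, arterial and venous ones. The 10 lowest, named after their values were seen, were *Cd36*, *Ly6c1*, *Tcf15*, *Sybu*, *Dach1*, *Mdga2*, *Sox17*, *Rapgef4*, *Cxcl12* and *Rgcc*. *Cd36* had 12.9, 0 and 0 CPM in lymphatic cells against 1020, 674 and 962, and *Sox17* had 13.6, 0 and 6.07 against 201, 113 and 113. *Ly6c1* has close copies, so its values of 76.6, 0 and 48.5 against 2280, 1348 and 1371 CPM are uncertain. Of 16 capillary genes 8 were lower and none higher, of 18 arterial genes 4 were lower and of 14 venous genes 3. Of the 17 further lymphatic genes 9 were higher and none lower.

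Among the 7 genes that chose the endothelial cells, *Flt1* and *Cldn5* differed most between the 2 kinds. *Flt1* had 246, 29.2 and 273 CPM in lymphatic cells and 2938, 1609 and 1944 CPM in the others, and in library 1 it was found in 12% against 98.9% of the cells. In the lymphatic-like cluster of 64 cells *Flt1* had 0 CPM. It had 1361 CPM in the venous-like cluster, of which 10 cells were lymphatic by the 4 genes. *Cldn5* went the other way, with 694, 1007 and 625 CPM against 170, 307 and 59.7. *Kdr* was nearer, with 520, 657 and 528 against 1004, 279 and 445 CPM. In library 1 *Cldn5* was found in 87.2% of lymphatic and 33.5% of other endothelial cells. As *Flt1* and *Cldn5* were both among the 7 genes that chose the cells, the choice bore unequally on the 2 kinds, in opposite directions. Its net effect and the share of lymphatic cells in the tissue were not measured.

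Some pathway genes also differed between the 2 kinds. *Nrp1* had 97.0, 14.6 and 170 CPM in lymphatic cells against 1596, 441 and 902, whereas its relative *Nrp2*, the co-receptor for VEGF-C, had 320, 277 and 328 against 272, 311 and 466. In the lymphatic-like cluster *Nrp1* had 0 CPM. It had 426 CPM in the venous-like cluster, of which 10 cells were lymphatic by the 4 genes. *Vegfc* had 14.4, 0 and 0 CPM against 107, 187 and 146. *Nr2f2*, a factor of veins and lymphatics, had 900, 1109 and 892 CPM against 193, 303 and 436, past the threshold in library 1 alone.

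Epithelial markers moved with the lymphatic call. In library 1, 16.5% of lymphatic and 7.76% of other endothelial cells had UMIs of at least 4 of 7 epithelial markers, and in library 3 the shares were 26.3 and 13.5%. In library 2 they were 0 and 8.0%. Without the 2 epithelial-marked clusters the lymphatic share over libraries 1 and 3 was 21.5%, against 23.8% with them.

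**Figure D4:**
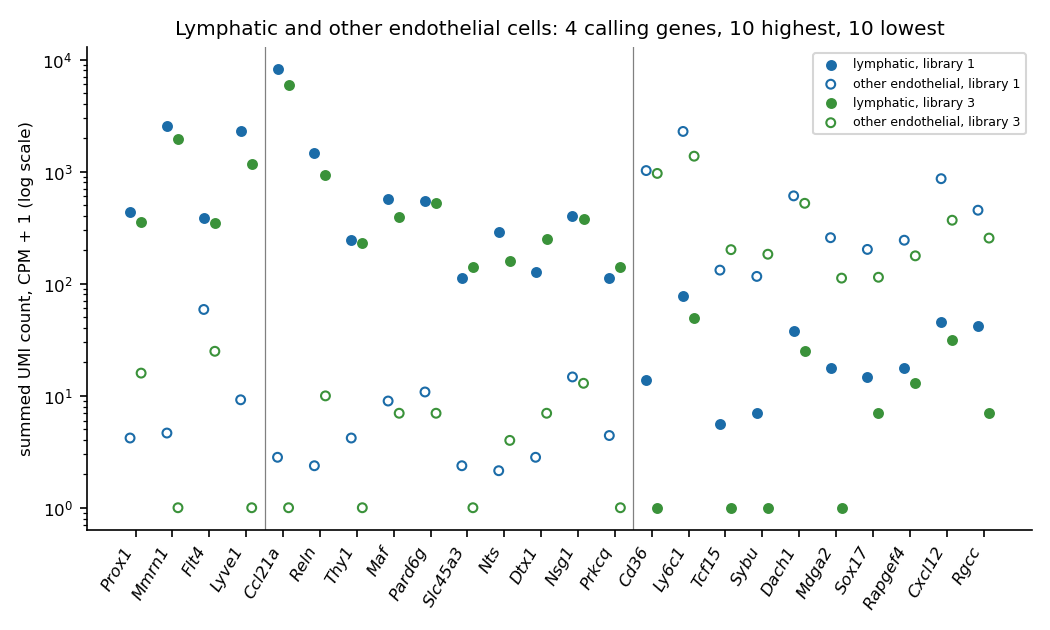
Summed CPM plus 1 (log axis) of the 4 calling genes, the 10 highest and the 10 lowest genes in lymphatic (filled) and other (open) endothelial cells of libraries 1 and 3. *Ccl21a* lies at 8240 and 5959 CPM in lymphatic cells and at 1.82 and 0 in the others, and *Cd36* at 12.9 and 0 against 1020 and 962.

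The sort was meant to hold cells that expressed *Lrig1* (chr6:94581510-94677242, minus strand), and the study splits cells by whether a *Lrig1* UMI was found. In endothelial cells it was found in 65 of 584, 4 of 32 and 10 of 56 cells. These shares were 11.1% (8.83 to 13.9), 12.5% (4.97 to 28.1) and 17.9% (10.0 to 29.8). All other sorted cells had 42.6, 57.6 and 51.8%, at median depths of 10914.5, 14373 and 11213 UMIs against 8007, 6611 and 5526.5 for endothelial cells. Among the other classes the share was 58.3, 68.0 and 59.3% in epithelial-marked, 26.8, 33.0 and 33.2% in fibroblast-marked and 16.7, 41.7 and 19.3% in mural-marked cells.

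Macrophage-marked cells, taken as the background of free RNA, had 0.833, 5.13 and 7.89% at medians of 11908.5, 5857 and 5701.5 UMIs. These shares were 1 of 120, 2 of 39 and 3 of 38 cells. With each cell thinned to 5000 UMIs endothelial cells had 6.32, 12 and 10.0%, macrophage-marked cells 1.03, 0 and 5.00% and all other cells 27.1, 32.7 and 32.6%. The thinned values left out 157, 7 and 26 shallower endothelial cells. Before thinning, the intervals of endothelial and macrophage-marked cells overlapped in libraries 2 and 3 and lay apart in library 1. After thinning to 5000 UMIs they overlapped in all 3 libraries, and thinning left out 23, 19 and 18 macrophage-marked cells. A *Lrig1* UMI was then found in 1 of 97, 0 of 20 and 1 of 20 of them. With so few such cells, overlap cannot show that the shares were equal. The endothelial share was the higher in each library before and after thinning.

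Before thinning, the share was higher in endothelial cells with more epithelial markers. Endothelial cells with at least 4 epithelial markers had a *Lrig1* UMI in 24 of 57 cells of library 1 (42.1%) and 4 of 10 of library 3 (40.0%). Those with fewer had 7.78 and 13.0%. Without the 2 epithelial-marked clusters the endothelial share was 6.31, 9.68 and 12.8%, which in libraries 2 and 3 was within the intervals of the macrophage-marked cells (1.42 to 16.9 and 2.72 to 20.8). In library 1 its interval of 4.51 to 8.77 met the upper end of that of the macrophage-marked cells (0.147 to 4.57). Before thinning, the share without those clusters was above the macrophage-marked share in each library, and intervals this wide cannot show equal shares. Thinned to 5000 UMIs it was 3.25% in library 1 (1.87 to 5.60), 12.5% in library 2 and 4.76% in library 3. Macrophage-marked cells then had 1.03, 0 and 5.00%.

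Lymphatic cells had a *Lrig1* UMI in 21.8, 28.6 and 31.6% of cells and other endothelial cells in 7.98, 8.0 and 10.8%. Without the epithelial-marked clusters the shares were 12.5% (7.45 to 20.2) and 26.7% (10.9 to 52.0) for lymphatic cells in libraries 1 and 3. They were 4.71% (3.04 to 7.25) and 6.25% (1.73 to 20.1) for the others. The share was higher for lymphatic cells in each library, and its intervals were apart in library 1 and overlapped in library 3. Depth in library 1 was close, with medians of 8002.5 and 7682 UMIs without those clusters, but library 3 had 6051 and 3898. Thinned to 5000 UMIs, library 1 gave 7.23% (3.36 to 14.9) against 2.10% (0.965 to 4.50), with overlapping intervals. Library 3 then gave 1 of 9 lymphatic cells against 0 of 12 others.

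**Figure D5:**
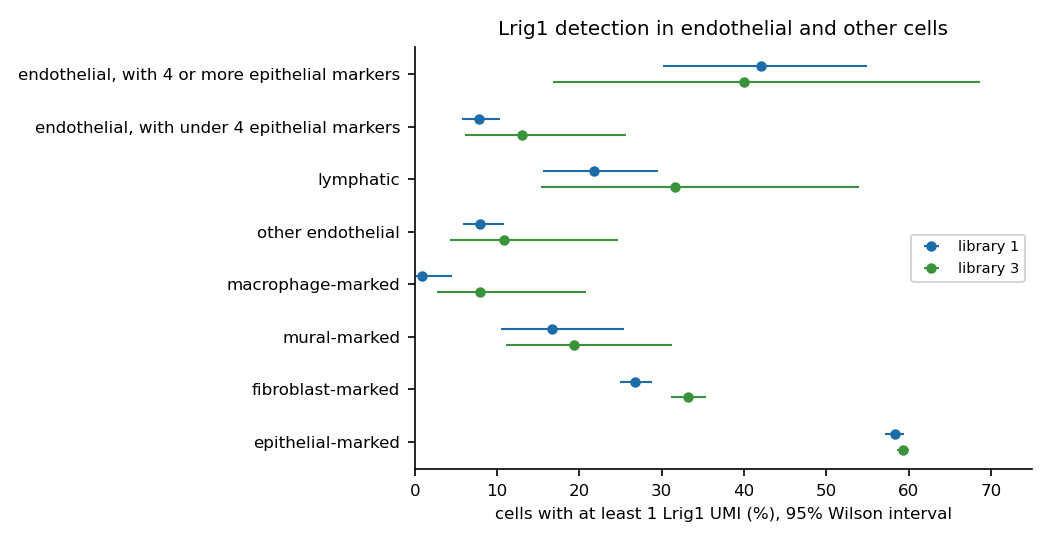
Percent of cells with at least 1 *Lrig1* UMI in libraries 1 and 3, with 95% Wilson intervals as bars, for subsets of endothelial cells and for other classes. Shares are before thinning, and the groups differ in depth. Endothelial cells with at least 4 epithelial markers lie at 42.1 and 40.0%, those with fewer at 7.78 and 13.0%, and macrophage-marked cells at 0.833 and 7.89%.

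*Lrig1*+ and *Lrig1*- endothelial cells were compared over summed counts of libraries 1 and 3, with 65 and 10 *Lrig1*+ cells against 519 and 46 *Lrig1*- cells. The split did not use the 7 genes that chose the cells, although all 7 stayed among the genes tested, and *Lrig1* was left out. By edgeR's quasi-likelihood test with Benjamini-Hochberg adjustment 98 of 8998 genes (1.09%) passed an adjusted p of 0.05, 97 higher and 1 lower in *Lrig1*+ cells. At an unadjusted p under 0.05, 860 passed (9.56%). With the library as a replicate block 620 passed (6.89%), 407 higher and 213 lower.

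The 5 genes with the largest rise past the threshold were *Aldh1a7*, *Cadm2*, *Fermt1*, *Elapor1* and *Wdr72*. *Aldh1a7*, an aldehyde dehydrogenase, had 33.8 and 18.9 CPM in *Lrig1*+ cells of libraries 1 and 3 against 1.89 and 2.54 (log2 fold change 3.91, SE 0.64, edgeR adjusted p = 0.0286). *Cadm2*, an adhesion molecule, rose by 3.66 (SE 0.56, edgeR adjusted p = 0.0247), and *Fermt1*, an integrin adaptor of epithelium, by 3.39 (SE 0.58, edgeR adjusted p = 0.0322). *Elapor1* and *Wdr72* rose by 3.19 and 3.18 (edgeR adjusted p = 0.0323 and 0.0169). Each of these was higher in both libraries. The sums of library 3 were small, with 106007 UMIs in *Lrig1*+ and 393612 in *Lrig1*- cells, so few UMIs stood behind its values. Without the epithelial-marked clusters all 5 genes were too low to be tested. The paper lists *Aldh1a7* among airway epithelial markers.

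The one gene that fell was *Lrg1*, a secreted glycoprotein of venules, with 329 and 274 CPM in *Lrig1*+ cells against 831 and 729 (log2 fold change -1.36, SE 0.23, edgeR adjusted p = 0.0322). Among listed genes *Trp63* (log2 fold change 2.26, SE 0.29, edgeR adjusted p = 0.0135), the junction plaque gene *Dsp* (1.89), *Egfr* (2.51) and the fibroblast gene *Dcn* (2.08) also rose. Of 12 epithelial genes these were *Trp63* and *Dsp*, with 10 higher at an unadjusted p under 0.05. None of the 4 lymphatic genes or of the 15 capillary genes tested passed. At an unadjusted p under 0.05, 6 of the 15 were lower and 1 of the 4 was higher, beside 545 higher and 315 lower of all genes. With the replicate block 7 of the 15 passed as lower and 2 of the 4 as higher.

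Epithelial markers moved with the split. In libraries 1 and 3, 36.9 and 40.0% of *Lrig1*+ cells had at least 4 epithelial markers, against 6.36 and 13.0% of *Lrig1*- cells, and *Lrig1*+ cells were deeper, with medians of 12343 and 6947.5 against 7441 and 5111 UMIs. Without the 2 epithelial-marked clusters none of 7121 genes passed edgeR's test, with 262 at an unadjusted p under 0.05, and none passed DESeq2, with 59. Of the 97 genes that had risen, 70 were then too low to be tested, and of the other 27, 19 had a fold change above 0 and 8 below, with a median log2 fold change of 0.65 against 1.87 before. *Dcn* went from 2.08 to 2.13 and *Lrg1* from -1.36 to -1.45 (edgeR adjusted p = 0.976 and 1). *Selenbp1*, *F3* and *Pde7a*, named after their values were seen, went from 2.32, 2.21 and 2.12 to -0.31, -0.35 and 0.26. Without marked doublets none of 7346 genes passed edgeR's test, with 380 at an unadjusted p under 0.05, and 9 passed DESeq2. Only 32 and 6 *Lrig1*+ cells remained without the clusters, and 35 and 9 without doublets. Leaving out the *Lrig1*+ sum of library 1 left 1 gene and leaving out the *Lrig1*- sum of library 1 left 3, whereas without the sums of library 3 the test gave 170 and 291 genes.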

How the data were processed

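Red sorted cells of mouse larynx were profiled in 3 droplet libraries. The authors deposited raw UMI counts per gene and barcode, aligned and counted with Cell Ranger 8.0.1 on GRCm39, without normalization. Ensembl identifiers named the features, as 52 of the 33696 share a symbol, and gene coordinates come from the GENCODE M39 annotation of GRCm39.

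Limits left 49393 of 60530 barcodes, with detected genes from 500 to 8000, UMIs from 1000 to 40000 and mitochondrial UMIs up to 8%. The study's methods word the first 2 ranges the other way round, for UMIs and genes, which was run as an alternative. A cell was marked for a class if it had at least 4 markers of that class (3 for muscle satellite cells), reached this for no other class and was not endothelial. Doublets were scored by likeness to summed pairs of cells and marked at 0.4% per 1000 barcodes, but were removed in an alternative alone. Clustering used scanpy 1.11.5 and igraph 0.11.9, with 2000 genes, 15 components, 15 neighbours and a Leiden resolution of 0.8. Cluster names needed 3 or more raised markers (log2 ratio of 1, in 10% of cells), which had to be 50% or more of the list with one among the 10 leading genes, and fewer than 3 raised markers of a class other than endothelium. This rule for names was made once the clusters had been seen. Cells and gene lists were chosen with earlier results of these data known, so no list is independent evidence.

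Counts were summed per library and expressed as CPM. Ratios used an added 1 CPM and genes with a mean of at least 10 CPM. Named genes were the 7 choosing genes, list genes, the 10 largest ratios outside the lists (50 CPM or more), the 10 largest lymphatic ratios (100 CPM or more), and the 5 largest rises and falls that passed the *Lrig1* test. Other named genes, those of clusters included, were picked after their values were seen. The comparison with other cells had been set for libraries 1 and 2 as those with 50 endothelial cells, which held for libraries 1 and 3 instead. It was kept as set, and the lymphatic and *Lrig1* comparisons used libraries 1 and 3.

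The *Lrig1* test took summed counts of libraries with at least 10 cells in each group. It was fitted with edgeR 4.0.16 under R 4.3.3, using TMM factors, filterByExpr, the quasi-likelihood test and Benjamini-Hochberg adjustment, with no covariate. The SE given is the size of the log2 fold change divided by the square root of the test's F, as the fit itself reports none. DESeq2 1.42.0 was an alternative. As *Lrig1*+ and *Lrig1*- cells of a library were from the same mice, the library number pairs the sums, and the deviations of paired sums from their group means correlated by 0.244. The scripts were tested on simulated data. P-values rest on the spread between the 2 sums of each group, which holds the sampling of cells as well as differences between pools of mice. The main fit did not use the pairing. Wilson intervals (95%) and the limit of 3 UMIs cover counting error only.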

Additional observations from a re-analysis of the deposited data

How the results depend on the processing

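Library 1 supplied most endothelial cells, and results of the other libraries rest on 32 and 56 cells. Limits of 500 to 8000 UMIs and 1000 to 40000 genes, as the methods word them, gave 328 endothelial cells in place of 672. A log2 ratio of at least 1 gave 1057 higher and 1260 lower genes, an added 5 CPM gave 390 lower and no filter gave 1109 lower. Without replicate 1 or replicate 2, 636 to 737 genes were higher and 766 to 987 lower, of which the highest came without library 1. The *Lrig1* share over libraries 1 and 3 was 11.7%. It was 6.56 and 2.64% after thinning to 5000 and 2000 UMIs, 7.83% without doublets, 6.86% without the 2 epithelial-marked clusters and 11.1 to 17.9% with 1 library left out. The lymphatic share was 17.7% with at least 3 of the 4 genes, 18.1% after thinning to 2000 UMIs and 22.8 to 33.9% with 1 library left out, in place of 23.8%. Genes higher and lower in lymphatic cells numbered 170 and 165, and 201 and 190 without doublets.

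For *Lrig1*+ against *Lrig1*- cells the 98 genes became 620 with the replicate block, 56 with DESeq2, 418 without a filter, 1 to 291 with 1 sum left out, where the lone sum was assumed to vary like the other group, and 228 with all 3 libraries and the block. Removing doublets left library 3 with 9 *Lrig1*+ cells, under the 10 required, so that alternative gave no test. With both libraries kept it gave 0 genes by edgeR (380 at an unadjusted p under 0.05) and 9 by DESeq2. Without the 2 epithelial-marked clusters it gave 0 genes by edgeR (262 unadjusted) and 0 by DESeq2 (59 unadjusted). The cause of these changes was not tested, and fewer cells entered the last 2 alternatives. At Leiden resolutions of 0.4 and 1.2 the arterial-like cells numbered 106 and 39 and the lymphatic-like cells 115 and 37. At 1.2 a further cluster of 51 cells had all 7 lymphatic markers raised and went unnamed, since none of them was among its 10 leading genes. The alternatives with libraries 1 and 3, all 3 libraries, the 2 clusters left out, both libraries kept without doublets, the lymphatic gene counts without doublets, or other resolutions were chosen after seeing the data. Of the values compared under alternatives, 42 stayed within the range set for them and 29 moved.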
